A study of Arabidopsis thaliana with 18 samples.

Results

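The light-harvesting and photosystem subunit genes of Arabidopsis thaliana are the nuclear genes for the proteins that hold chlorophyll around the photosystems and for the small subunits of the photosystems themselves. They were chosen by name from the deposited gene tables: LHCA1 to LHCA6, the LHCB1 to LHCB7 genes, and the nuclear PSA (photosystem I) and PSB (photosystem II) subunit genes, 43 of the 32833 genes listed. By role they comprise 6 genes of the photosystem I antenna (LHCA), 9 of the trimeric photosystem II antenna (LHCB1, LHCB2, LHCB3), 6 of the monomeric antenna proteins (LHCB4, LHCB5, LHCB6 and the rare LHCB7), 12 of photosystem I subunits and 10 of photosystem II subunits. Antenna proteins bind chlorophyll a, chlorophyll b and carotenoids and pass absorbed light energy to the reaction centres, whose chlorophyll-binding core proteins are encoded in the chloroplast. Their proteins are made as precursors in the cytosol. The genes are strongly transcribed in green tissue, and in seedlings are known to rise with light and with chloroplast development. The GOLDEN2-LIKE factors GLK1 and GLK2 are known activators of many of them.

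The study asked which transcripts depend on SOG1, a transcription factor of the DNA damage response, when aluminium (Al) stops root growth. Whole seedlings of the Col-0 wild type and of the mutants als3-1 and sog1-7 in the Col-0 ecotype were sown on soaked gel medium with 0 or 1.5 mM AlCl3 at pH 4.2, kept in constant light at 20 °C and collected 84 h after sowing, and polyadenylated RNA was sequenced. The als3-1 allele affects ALS3, a transporter-like protein known for Al tolerance, and sog1-7 is a loss-of-function allele of SOG1; each mutant is represented by 1 allele, and the acid medium was common to all groups, so that no group was grown at a higher pH. The 6 groups held 3 libraries each, numbered 2, 3 and 4. The labels do not say that the 3 came from separate cultures, so the p-values measure the spread between these libraries, which may be technical. In RNA of whole seedlings, fewer green cells and less RNA per green cell cannot be told apart.

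The libraries held 25561124 to 44572947 counts on genes, so that 3 counts correspond to 0.0673 to 0.117 counts-per-million (CPM). ALS3 and SOG1 themselves did not differ between either mutant and wild type at either dose by the test used here, with adjusted p between 0.171 and 0.999 (edgeR quasi-likelihood, Benjamini-Hochberg), and RNA levels of a changed allele do not check a genotype label. SOG1 had 13.6 to 19.5 CPM over all 18 libraries. Some libraries stood apart. In 2 libraries, wild type at 1.5 mM replicate 2 and als3-1 at 0 mM replicate 2, genes rich in G and C were low, many members among them. A weaker trend of this kind over all genes was present in replicate 2 of every other group. In 3 further libraries ribosomal RNA genes took 0.0168 to 0.0285% of counts, against up to 5.71% elsewhere. These were als3-1 at 1.5 mM replicate 2 and sog1-7 replicate 2 at both doses. The counts of members called are given below with and without these libraries.

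The members together took 3.91, 4.27 and 6.09% of all counts in the 3 wild-type libraries without Al, a mean of 4.76% ± 1.17 (SD, n = 3). In als3-1 without Al they took 1.01, 2.21 and 2.35%, a mean of 1.86% ± 0.73 (SD, n = 3). In sog1-7 without Al they took 1.50, 1.27 and 1.00%, a mean of 1.26% ± 0.25 (SD, n = 3). Every library of both mutants lay below every wild-type library. With Al the shares were 1.97, 4.45 and 6.20% in wild type (4.21% ± 2.12), 2.57, 2.82 and 2.88% in als3-1 (2.76% ± 0.17) and 2.28, 1.64 and 1.77% in sog1-7 (1.90% ± 0.34; SD, n = 3 for each). The lowest wild-type value with Al was the library in which GC-rich genes were low, and it alone fell within the range of the mutants. In wild type without Al the trimeric antenna genes carried the largest part, 1.43 to 2.54% of counts. They took 0.186 to 0.927% in als3-1 and 0.315 to 0.351% in sog1-7, where the photosystem II subunit genes took 0.296 to 0.512%. No test was made of these sums.

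**Figure D1:**
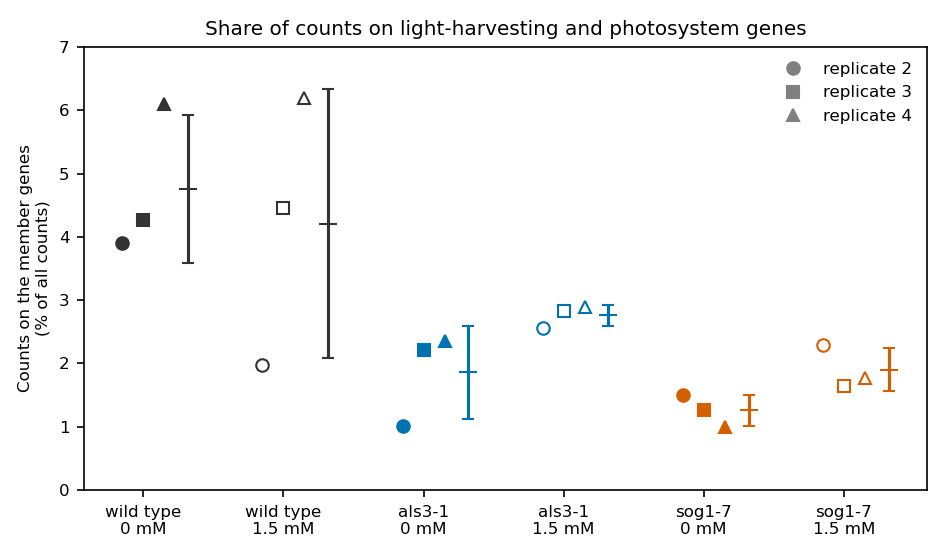
Share of all counts (%, y axis) taken by the member genes in each of the 18 libraries, by genotype and dose; filled points are 0 mM and open points 1.5 mM AlCl3, the marker shape gives the replicate number, and bars are the mean ± SD (n = 3). Without Al the wild-type libraries sit between 3.91 and 6.09%, above all 6 mutant libraries.

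Levels between genes were compared in FPKM (fragments scaled to transcript length and to library size), which corrects for gene length. LHCB1.3, one of the genes for the most abundant trimer protein, was highest with a mean of 3889 FPKM over the 18 libraries (654 to 9344). PSBR, a small photosystem II subunit, followed with 1098 FPKM, and LHCB1.2 (883 FPKM), PSBO1 (799 FPKM) and LHCB1.1 (729 FPKM) were close behind. Within the other roles the highest were LHCA4 (637 FPKM), LHCB5 (716 FPKM) and PSAL (688 FPKM). The ranges over libraries of all of these overlapped. At the lower end stood LHCB2.3 (108 FPKM), LHCA5 (49.7 FPKM) and LHCA6 (43.7 FPKM), of which the last 2 are known to link photosystem I to the chloroplast NADH dehydrogenase-like complex. LHCB4.3 (25.5 FPKM) and LHCB7 (3.40 FPKM, from 2.39 to 4.96) were lowest. LHCB1.5 had a mean of 968 FPKM but 0 counts in all 18 libraries; an annotated gene on the opposite strand covers 100% of its exons. The count-based test could not be run on it, and the other 42 members were tested. By limma on log2(FPKM + 1) LHCB1.5 was called in none of the 12 comparisons, 3 of which had an unadjusted p under 0.05; its log2 fold change without Al was -3.37 ± 1.26 in als3-1 and -2.77 ± 1.26 in sog1-7 (adjusted p = 0.234 and 0.195, limma). The lowest value of any of these 42 in any library was 4.23 CPM (LHCB7), so none entered through 1 group alone.

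**Figure D2:**
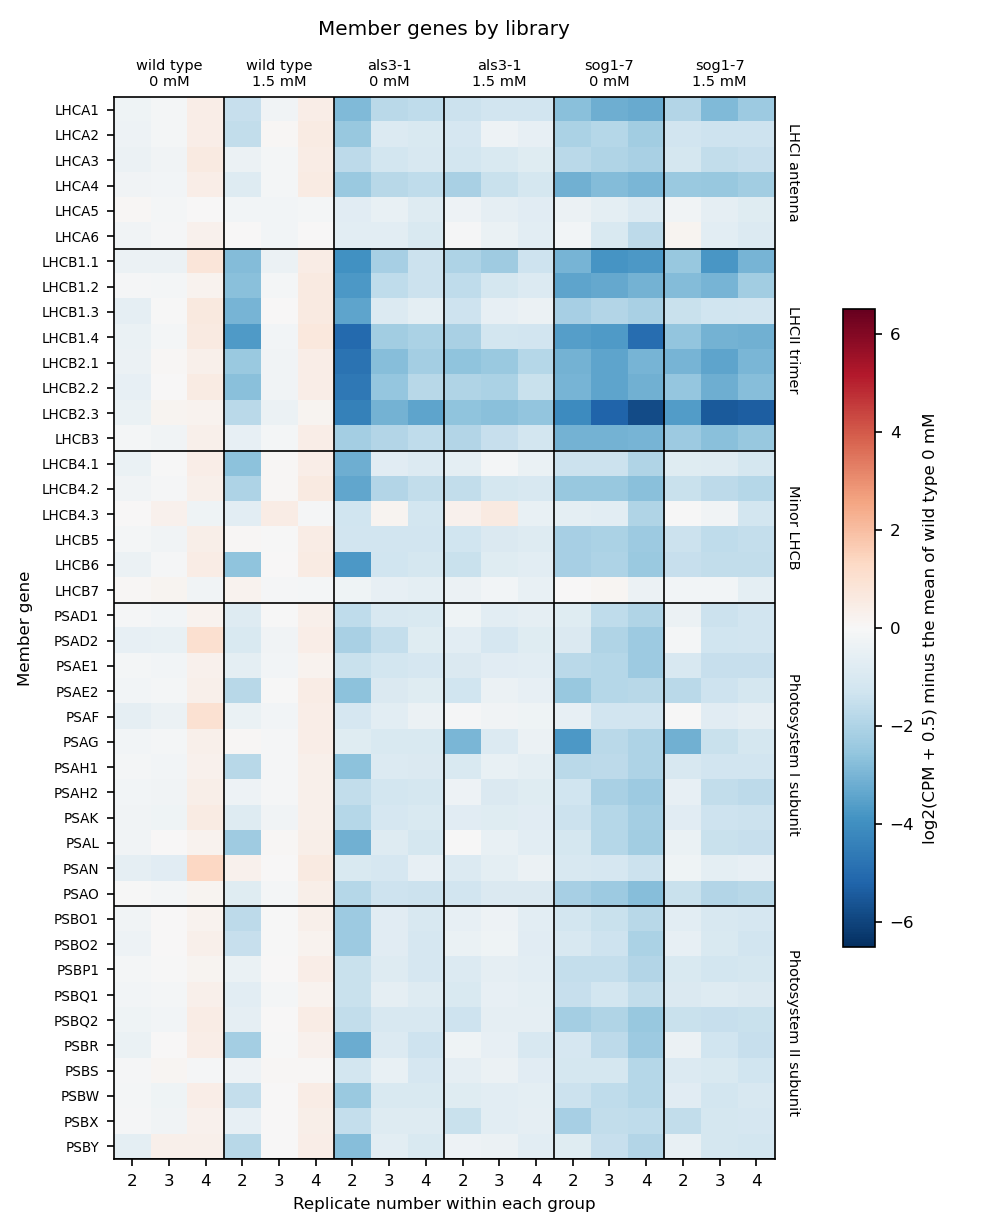
Level of each of the 42 members with counts (y axis, ordered by role) in each of the 18 libraries (x axis) as log2(CPM + 0.5) minus the mean of the 3 wild-type libraries at 0 mM. Most members are below 0 in the mutant libraries, and wild type at 1.5 mM replicate 2 is low for many members within its group.

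Without Al the members were lower in both mutants than in wild type. A gene was called where its adjusted p was under 0.05 in edgeR's quasi-likelihood test, fitted to all 21650 genes that passed the filter on low counts. In als3-1, 16 of the 42 tested members were called lower and 0 higher, where 2.32% of all genes tested were called, 1.46% lower. The log2 fold change was negative for all 42, with a median of -1.32 beside 0.00 over all genes, and ran from -3.59 to -0.52. In sog1-7, 33 members were called lower and 0 higher, where 10.2% of all genes were called, 4.92% lower. Here too the log2 fold change was negative for all 42, from -4.92 to -0.06 with a median of -1.86 beside -0.01 over all genes. The 3 mutant libraries lay below the 3 wild-type libraries without overlap for 39 members in als3-1 (11.6% of all genes did so) and for 39 in sog1-7 (14.5% of all genes). These 2 comparisons share the 3 wild-type libraries and are not independent of each other.

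The count in als3-1 depended on single libraries. It was 6 without als3-1 replicate 2, 9 without als3-1 replicate 3, 8 without als3-1 replicate 4, 9 without wild-type replicate 3 and 6 without wild-type replicate 4. With the replicate number as a block, which the correlation of same-numbered libraries allowed here, 28 members were called lower in als3-1 in place of 16. Without the 2 libraries in which GC-rich genes were low the counts were 16 in als3-1 and 38 in sog1-7, and without the 3 libraries low in ribosomal RNA they were 20 and 29. Leaving out any 1 library of the sog1-7 comparison left 23 to 30 members called. The shares of all genes called, here and below, are those of the main fit and are not given for the other fits. A higher count of members in another fit is therefore not set against its own share.

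**Figure D3:**
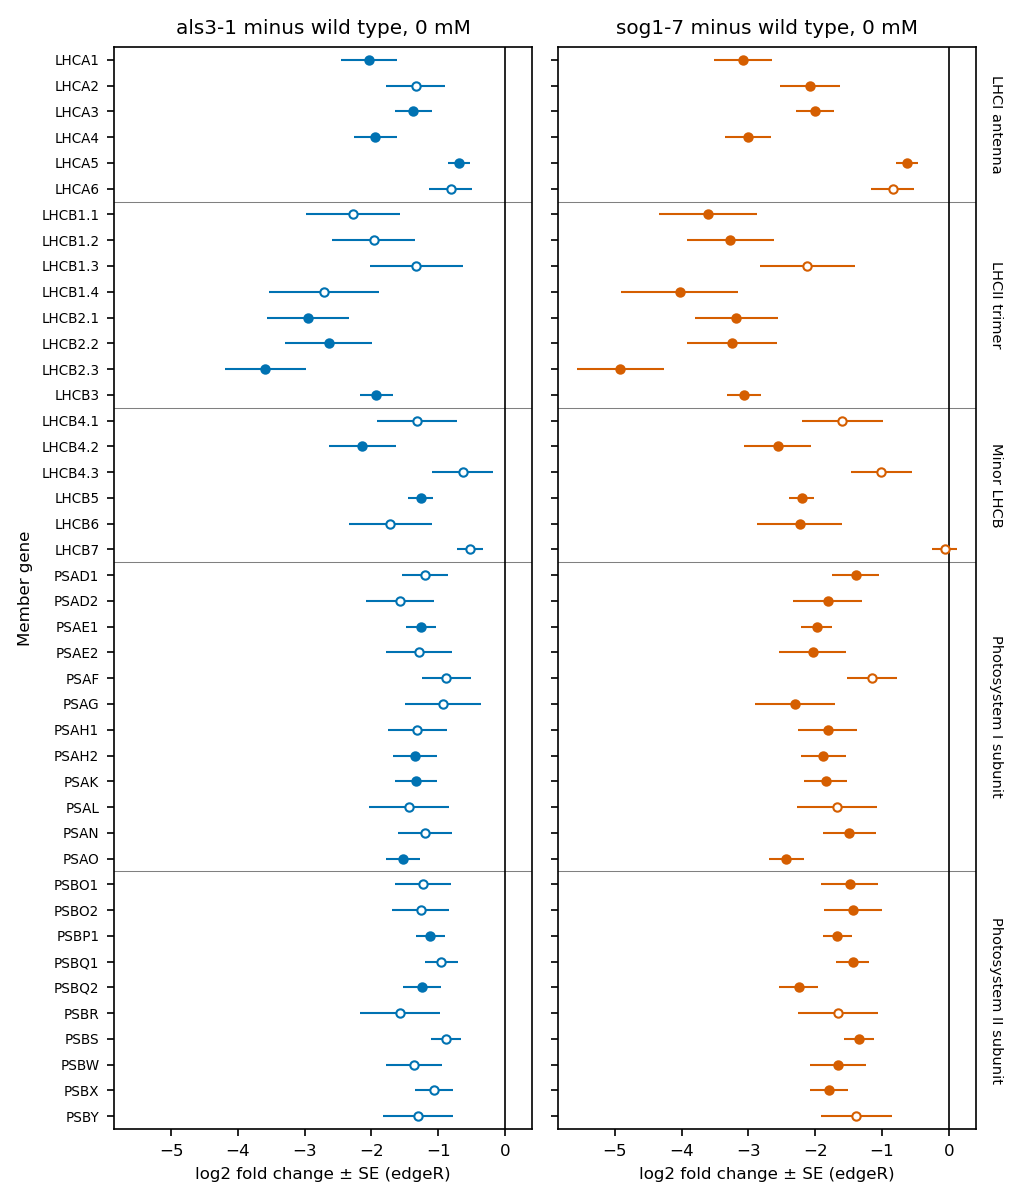
Log2 fold change against wild type at 0 mM (x axis, edgeR estimate ± SE) of each of the 42 tested members (y axis, by role) in als3-1 and in sog1-7; filled points have an adjusted p under 0.05. All points lie below 0, and LHCB2.3 lies farthest from it in both mutants, at -3.59 and -4.92.

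Of the 6 photosystem I antenna genes, 4 were called lower in als3-1 (median log2 fold change -1.35) and 5 in sog1-7 (-2.04). LHCA4 (AT3G47470, chromosome 3, 17493343 to 17495033, minus strand), which pairs with LHCA1 in the antenna belt and holds its most red-shifted chlorophylls, had 1746, 1841 and 2775 CPM in wild type, 385, 602 and 671 in als3-1 and 238, 289 and 265 CPM in sog1-7. The 3 genotypes did not overlap. Its log2 fold change was -1.94 ± 0.32 in als3-1 (SE; 3.84-fold lower; adjusted p = 0.00621, edgeR quasi-likelihood, Benjamini-Hochberg) and -3.01 ± 0.34 in sog1-7 (8.03-fold lower; adjusted p = 0.000151). LHCA1, its partner, fell by 2.03 on the log2 scale in als3-1 (adjusted p = 0.0199, edgeR) and by 3.08 in sog1-7 (adjusted p = 0.000616). LHCA2 and LHCA3 form the other pair of the belt. LHCA3 was called lower in both mutants (-1.37 and -2.005) and LHCA2 in sog1-7 (-2.08; in als3-1 -1.34, adjusted p = 0.135, edgeR). LHCA5 had smaller log2 fold changes. It had 77.3, 68.2 and 74.9 CPM in wild type, 44.4, 52.3 and 40.2 in als3-1 and 56.3, 47.6 and 38.8 in sog1-7. The wild-type libraries were highest for LHCA5, and it was called lower in both mutants (-0.69 ± 0.16 and -0.63 ± 0.16; adjusted p = 0.0356 and 0.0209, edgeR). LHCA6 had 63.4, 71.1 and 88.8 CPM in wild type and 65.3, 37.1 and 22.2 CPM in sog1-7, which overlapped, and was called in neither (-0.81 and -0.84; adjusted p = 0.231 and 0.116, edgeR).

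The trimeric photosystem II antenna genes had the largest median log2 fold changes of the 5 roles, -2.46 in als3-1 and -3.26 in sog1-7, with 4 and 7 of the 8 tested members called lower. LHCB2.3 (AT3G27690, chromosome 3, 10255906 to 10257489, plus strand), one of the genes for the trimer protein that is phosphorylated when the antenna moves between photosystems, had 325, 499.9 and 525 CPM in wild type. It had 20.4, 51.1 and 40.6 CPM in als3-1 and 25.4, 11.6 and 7.29 CPM in sog1-7, where the lowest als3-1 library lay below the highest sog1-7 library and both mutants lay far below wild type. Its log2 fold change was -3.59 ± 0.61 in als3-1 (12.04-fold lower; adjusted p = 0.00696, edgeR quasi-likelihood, Benjamini-Hochberg) and -4.92 ± 0.65 in sog1-7 (30.3-fold lower; adjusted p = 0.000452). A gene on the opposite strand, AT3G27700, shares 40.6% of the exon bases of LHCB2.3. LHCB2.1 and LHCB2.2 were called lower in both mutants, at -2.95 and -2.64 in als3-1 and -3.18 and -3.24 in sog1-7. LHCB3 (AT5G54270, chromosome 5, 22038165 to 22039568, plus strand), the trimer protein that stands next to the monomeric antenna, had 1259, 1173 and 1743 CPM in wild type, 293, 367 and 439.9 in als3-1 and 165, 164 and 169.9 CPM in sog1-7. The 3 genotypes stood in separate ranges, with log2 fold changes of -1.92 ± 0.25 (adjusted p = 0.00119, edgeR) and -3.06 ± 0.26 (adjusted p = 2.96e-05). LHCB3 and LHCB5 had the lowest adjusted p of all members in sog1-7.

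The LHCB1 genes gave wide ranges. LHCB1.3 had 6167, 9139 and 14303 CPM in wild type, 861, 4993 and 5963 in als3-1 and 2122, 2521 and 2186 CPM in sog1-7; the mutants were below wild type in every library, yet the difference was not called (-1.33 ± 0.69, adjusted p = 0.405, and -2.12 ± 0.71, adjusted p = 0.0698, edgeR). LHCB1.4 had 791, 957 and 1586 CPM in wild type, 31.2, 223 and 257 in als3-1 and 87.7, 82.1 and 34.1 CPM in sog1-7. It was called in sog1-7 (-4.03 ± 0.87; 16.3-fold lower; adjusted p = 0.00850, edgeR) and not in als3-1 (-2.71 ± 0.82; adjusted p = 0.101), whose lowest library is the one in which GC-rich genes were low. LHCB1.1 and LHCB1.2 were called lower in sog1-7 (-3.61 and -3.27) and not in als3-1 (-2.28 and -1.97). The coding sequences of LHCB1.1, LHCB1.2 and LHCB1.3 lie side by side on chromosome 1 and are near copies, with 95.6 to 96.4% identity over 804 bases and runs of identical bases of up to 62. How reads that match more than 1 copy were counted is not given in the sources at hand, so their separate values are uncertain. Per kb of exon their CPM was 1.14 to 1.16 times their FPKM (medians over libraries), within the range of most other members. The first 90 coding bases (RefSeq, TAIR10, 5′ to 3′) are shown, with capitals at the 9 positions where the copies differ. They lie at chr1:10475803-10475892 for LHCB1.1 and chr1:10473157-10473246 for LHCB1.2 on the minus strand, and at chr1:10478071-10478160 for LHCB1.3 on the plus strand. No other 90-base window searched held more differing positions, and the run of 62 identical bases (640 to 701) lies outside it.
LHCB1.1: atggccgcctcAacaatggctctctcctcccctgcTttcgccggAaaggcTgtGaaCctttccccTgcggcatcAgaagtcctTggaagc
LHCB1.2: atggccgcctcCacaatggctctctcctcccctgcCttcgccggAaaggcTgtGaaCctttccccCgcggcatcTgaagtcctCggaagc
LHCB1.3: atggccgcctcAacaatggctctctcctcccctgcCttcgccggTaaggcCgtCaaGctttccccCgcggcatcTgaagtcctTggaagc
Over the whole coding length the 3 copies differed at 47 positions. With the counts of the LHCB1 genes summed into 1 value, and those of the LHCB2 genes into another, 14 values were called lower in als3-1 and 29 in sog1-7 without Al.

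Of the 6 monomeric antenna genes, 2 were called lower in als3-1 (median log2 fold change -1.29) and 3 in sog1-7 (-1.90). LHCB5 (AT4G10340, chromosome 4, 6408007 to 6409849, plus strand) encodes CP26, which links trimers to the photosystem II core. It had 1782, 1704 and 2531 CPM in wild type, 826, 833 and 846 in als3-1 and 446, 471 and 387 CPM in sog1-7. The 3 genotypes did not overlap, and the als3-1 libraries lay close together. The log2 fold change was -1.26 ± 0.19 in als3-1 (2.40-fold lower; adjusted p = 0.00297, edgeR quasi-likelihood, Benjamini-Hochberg) and -2.21 ± 0.19 in sog1-7 (4.61-fold lower; adjusted p = 2.96e-05). LHCB4.2, for 1 of the CP29 proteins, was called lower in both (-2.13 and -2.56), whereas LHCB4.1 (-1.32 and -1.60) and LHCB4.3 (-0.63 and -1.01) were called in neither. LHCB6, for CP24, was called in sog1-7 (-2.23 ± 0.63; adjusted p = 0.0360, edgeR). LHCB7, the member with the lowest level, had 7.19, 7.75 and 5.95 CPM in wild type, 5.61, 4.66 and 4.27 in als3-1 and 7.00, 7.75 and 5.21 CPM in sog1-7. Wild type and sog1-7 overlapped, and its log2 fold change in sog1-7 was -0.06 ± 0.19 (adjusted p = 0.879, edgeR), the smallest of the 42.

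Of the 12 photosystem I subunit genes, 4 were called lower in als3-1 (median -1.30) and 10 in sog1-7 (median -1.83). PSAO (AT1G08380, chromosome 1, 2640803 to 2641934, minus strand) encodes a small subunit at the side of photosystem I where the mobile antenna docks. It had 597, 558 and 689 CPM in wild type, 166, 242 and 233 in als3-1 and 135, 118 and 88.2 CPM in sog1-7. The ranges of the 3 genotypes were separate, and the log2 fold changes were -1.52 ± 0.25 (adjusted p = 0.00601, edgeR) and -2.44 ± 0.26 (adjusted p = 0.000110). PSAH1, PSAH2 and PSAL encode the other subunits of that side. PSAH2 was called in both mutants (-1.34 and -1.88), PSAH1 in sog1-7 (-1.82) and PSAL in neither (-1.44 and -1.68). PSAL had 1117, 1334 and 1514 CPM in wild type, 148, 724 and 592 in als3-1 and 601, 364 and 271 CPM in sog1-7. All mutant libraries lay below wild type for PSAL, and the als3-1 libraries differed widely among themselves. On the stromal side, where ferredoxin is reduced, PSAE1 was called in both (-1.26 ± 0.22, adjusted p = 0.00912, and -1.98 ± 0.23, adjusted p = 0.000177, edgeR), and PSAE2 (-2.04), PSAD1 (-1.40) and PSAD2 (-1.82) in sog1-7. On the lumenal side, where plastocyanin docks, PSAN was called in sog1-7 (-1.49) and PSAF in neither (-0.88 and -1.15; adjusted p = 0.266 and 0.0619, edgeR). Of the peripheral membrane subunits, PSAK was called in both (-1.33 and -1.84) and PSAG in sog1-7 (-2.30).

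PSAG had 113, 115 and 159 CPM in wild type, 74.2, 65.0 and 64.3 in als3-1 and 9.20, 37.7 and 31.5 CPM in sog1-7 without Al, and 135, 122 and 173 CPM, 16.1, 68.7 and 99.1 CPM and 14.4, 45.8 and 57.2 CPM with Al. Its 3 lowest libraries were the 3 low in ribosomal RNA. Without those libraries its log2 fold change in sog1-7 without Al was -1.89 (adjusted p = 0.000572, edgeR). An annotated antisense gene, AT1G55673, shares 61.4% of its exon bases and had 0 counts in all libraries but a mean of 950 FPKM. Per kb of exon, the CPM of PSAG was 0.260 of its FPKM and that of PSAE1 0.501 (medians over libraries). The other tested members had 0.791 to 1.46, so the CPM given for PSAG and PSAE1 are low beside their FPKM. The ratio was not constant over libraries, from 0.143 to 0.311 for PSAG and from 0.424 to 1.18 for PSAE1. Spread and fold change in CPM and in FPKM can therefore differ, and the edgeR tests of both genes used the counts. Without Al, PSAE1 in als3-1 had 120, 143 and 154 CPM but 144, 359 and 415 FPKM. In wild type it had 303, 292 and 405 CPM and 576, 644 and 1071 FPKM. The part of the shared exons in these differences was not tested. Shared exons are also on record for PSAH1 (53.3%), PSAE1 (33.0%) and PSAH2 (24.8%), each with a gene on the opposite strand.

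Of the 10 photosystem II subunit genes, 2 were called lower in als3-1 (median -1.24) and 8 in sog1-7 (median -1.57). PSBQ2 (AT4G05180, chromosome 4, 2671523 to 2673243, minus strand) encodes an extrinsic protein of the oxygen-evolving complex. It had 463, 505 and 784 CPM in wild type, 186, 275 and 278 in als3-1 and 121, 148 and 101 CPM in sog1-7, in 3 ranges that did not overlap. The log2 fold changes were -1.25 ± 0.28 (adjusted p = 0.0314, edgeR) and -2.25 ± 0.29 (adjusted p = 0.000424). PSBP1, for another extrinsic protein, was called in both (-1.12 ± 0.21 and -1.67 ± 0.22). PSBO1 and PSBO2, for the manganese-stabilising protein, and PSBQ1 were called in sog1-7 (-1.48, -1.44 and -1.44; in als3-1 -1.23, -1.26 and -0.95). PSBS, the sensor of lumen acidity in photoprotection, was called in sog1-7 (-1.35 ± 0.23; adjusted p = 0.00199, edgeR) and had -0.88 ± 0.23 in als3-1 (adjusted p = 0.0526). Of the small subunits, PSBW and PSBX were called in sog1-7 (-1.66 and -1.79), while PSBR (-1.66, adjusted p = 0.0907, edgeR) and PSBY (-1.39, adjusted p = 0.114) were not. PSBR had 1237, 1665 and 2215 CPM in wild type, 177, 881 and 662 in als3-1 and 790.1, 504 and 324 CPM in sog1-7, with no overlap between wild type and either mutant.

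With 1.5 mM AlCl3 the members again stood lower in the mutants than in wild type. Fewer were called than without Al, which for als3-1 turned without the 2 libraries low in GC-rich genes, where 16 were called without Al and 19 with it. In als3-1, 6 members were called lower and 0 higher, where 5.58% of all genes were called, 3.03% lower; the median log2 fold change was -0.64, and 41 of 42 were negative. In sog1-7, 17 were called lower and 0 higher, where 7.40% of all genes were called, 3.65% lower, with a median of -1.16 and all 42 negative. The mutant libraries lay below wild type without overlap for 16 members in als3-1 (13.1% of all genes) and 19 in sog1-7 (14.9%). The 6 called in als3-1 were LHCA3, LHCA4, LHCB2.3, LHCB3, LHCB5 and PSAO, and each was also called there without Al. LHCB5 had 2089.5, 1907 and 2710.1 CPM in wild type, 809, 1033 and 1086 in als3-1 and 762, 623 and 673 CPM in sog1-7. The 3 ranges were separate, and the log2 fold changes against wild type were -1.20 ± 0.19 (adjusted p = 0.00171, edgeR) and -1.70 ± 0.19 (adjusted p = 0.000225). LHCB3 had 955, 1263 and 1853 CPM, 369, 493 and 589 CPM and 262, 207 and 251 CPM in the same order, again in separate ranges (-1.49 ± 0.24 and -2.50 ± 0.25; adjusted p = 0.00227 and 0.000128, edgeR). LHCA4 had 1168, 1916 and 3002 CPM, 487, 769 and 941 CPM and 385, 371 and 433 CPM (-1.47 ± 0.32 and -2.36 ± 0.33; adjusted p = 0.0134 and 0.00119, edgeR). Its lowest wild-type library still exceeded the highest als3-1 library. LHCB2.3 had 130.2, 343 and 502 CPM, 71.1, 66.1 and 74.9 CPM and 35.3, 9.44 and 10.1 CPM, with log2 fold changes of -2.20 ± 0.58 and -4.15 ± 0.63 (4.60-fold and 17.7-fold lower; adjusted p = 0.0345 and 0.00194, edgeR).

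By role, the members called lower with Al in als3-1 and sog1-7 were 2 and 3 of the photosystem I antenna, 2 and 6 of the trimeric antenna, 1 and 1 of the monomeric antenna, 1 and 3 of the photosystem I subunits, and 0 and 4 of the photosystem II subunits, of which 5 in als3-1 had an unadjusted p under 0.05. In sog1-7 the 17 called with Al were all among the 33 called without it. Wild-type replicate 2 was low for many members at this dose: LHCB1.3 had 1161, 9417 and 14104 CPM and PSAL 266, 1388 and 1724 CPM in the wild-type libraries 2, 3 and 4, against 3448, 3775 and 3997 CPM and 976, 475 and 456 CPM in sog1-7. Without that library, 11 members were called in als3-1 and 22 in sog1-7. Without it and als3-1 0 mM replicate 2, the counts were 19 and 28. The als3-1 count was 3 without wild-type replicate 3, 2 without wild-type replicate 4, 2 without als3-1 replicate 2, and 3 without als3-1 replicate 3 or replicate 4. The sog1-7 count was 11 without wild-type replicate 4, 10 without sog1-7 replicate 3 and 11 without sog1-7 replicate 4. With the replicate block, 10 members were called in als3-1 and 20 in sog1-7. These 2 comparisons share the wild-type libraries.

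Between the mutants the members stood mostly higher in als3-1, and few single differences passed the test. Without Al 40 of 42 log2 fold changes of als3-1 against sog1-7 were positive, with a median of 0.52, and 1 member was called higher, where 0.351% of all genes were called, 0.222% higher; the 3 als3-1 libraries lay above the 3 sog1-7 libraries for 10 members (8.66% of all genes). The 1 called was LHCB5, at 0.94 ± 0.19 (1.92-fold higher in als3-1; adjusted p = 0.0395, edgeR). With Al 37 were positive with a median of 0.51, and 1 was called higher, where 6.69% of all genes were called, 2.72% higher; 19 members did not overlap (10.8% of all genes). That was LHCB3, at 1.01 ± 0.24 (2.02-fold higher in als3-1; adjusted p = 0.0197, edgeR); without Al LHCB3 had 1.14 ± 0.24 (adjusted p = 0.0619). LHCB2.3 had 1.95 ± 0.57 with Al (adjusted p = 0.0539, edgeR), and its 3 als3-1 libraries lay above the 3 of sog1-7. The call without Al was lost when any 1 of the 6 libraries was left out. The call with Al was lost without als3-1 replicate 3 or replicate 4 and without sog1-7 replicate 3 or replicate 4, and 2 members were called without sog1-7 replicate 2. With the replicate block 3 members were called with Al in place of 1. Without the 2 libraries in which GC-rich genes were low the call of LHCB5 without Al was lost (0.95, adjusted p = 0.120, edgeR), and 2 others were called there, LHCB1.2 and LHCB3. With Al 7 were called, LHCB3 among them; both libraries enter the estimate of the spread that all comparisons share.

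The response to Al was read within each genotype as 1.5 mM against 0 mM. In wild type 0 members were called by edgeR, where 1.88% of all genes were; 0 had an unadjusted p under 0.05, and DESeq2 called 0. The median log2 fold change was -0.17, from -0.47 to 0.16, and 1 member, LHCA5, had all 3 treated libraries below the untreated ones (7.81% of all genes). The sign of this median rested on single libraries. Without wild type 1.5 mM replicate 2, in which GC-rich genes were low, it was 0.15, with 36 of 42 positive, 0 called by edgeR and 0 at an unadjusted p under 0.05, and without wild type 0 mM replicate 4 it was 0.02. In als3-1 0 were called, where 10.8% of all genes were; 1 had an unadjusted p under 0.05 (PSAE1), and DESeq2 called 0. There the median was 0.57, from -0.15 to 1.18, with 41 of 42 positive, and 15 members had all treated libraries above the untreated ones (13.5% of all genes). Without als3-1 0 mM replicate 2, the other library low in GC-rich genes, the median was 0.30, from -0.11 to 0.69, with 40 positive. In sog1-7 0 were called, where 1.19% of all genes were; 6 had an unadjusted p under 0.05 (LHCB3, LHCB5, PSAE1, PSAO, PSBP1 and PSBQ2), and DESeq2 called 1, LHCB5 (adjusted p = 0.0116, DESeq2). The median was 0.59, from -0.28 to 1.07, with 41 positive, and 21 members had no overlap upwards (7.11% of all genes). Same-numbered libraries deviated together in each genotype. In sog1-7, 39 members were higher with Al in all 3 same-numbered pairs, where 23.4% of all genes were. LHCB2.1, LHCB2.3 and LHCB7 were the others. In als3-1, 37 members were higher in all 3 pairs (26.7% of all genes). In wild type 2 were higher (19.4%) and 7 lower (18.8%). Pair 2 of als3-1 and of wild type each holds a library low in GC-rich genes. With the replicate block 0 members were called in sog1-7 by edgeR, and 11 had an unadjusted p under 0.05. The median over all genes was 0.00 in wild type, 0.02 in als3-1 and 0.00 in sog1-7.

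LHCB5 in sog1-7 had 446, 471 and 387 CPM without Al and 762, 623 and 673 CPM with it, a log2 fold change of 0.66 ± 0.19 (adjusted p = 0.126, edgeR). The treated libraries were all higher, and this was the lowest adjusted p of any member in the 3 genotypes. In als3-1 the LHCB5 log2 fold change was 0.23 ± 0.18 and in wild type 0.16 ± 0.18. PSAO in sog1-7 had 135, 118 and 88.2 CPM without Al and 228, 163 and 177 CPM with it (0.74 ± 0.25; adjusted p = 0.255, edgeR), again without overlap. PSBQ2 in sog1-7 had 121, 148 and 101 and 212, 199 and 211 CPM (0.75 ± 0.28; adjusted p = 0.347, edgeR). The largest estimates in als3-1 were those of LHCB1.4 (1.18 ± 0.78) and PSAL (1.05 ± 0.59), both with wide errors. PSAL in als3-1 had 148, 724 and 592 CPM without Al and 1278, 926 and 818 CPM with it, where the low value without Al is the replicate 2 library in which GC-rich genes were low. By role the median log2 fold changes were 0.41 to 0.77 in als3-1, 0.52 to 0.64 in sog1-7 and -0.32 to -0.08 in wild type. Without both libraries low in GC-rich genes they were 0.27 to 0.36 in als3-1, 0.52 to 0.64 in sog1-7 and 0.11 to 0.21 in wild type.

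**Figure D4:**
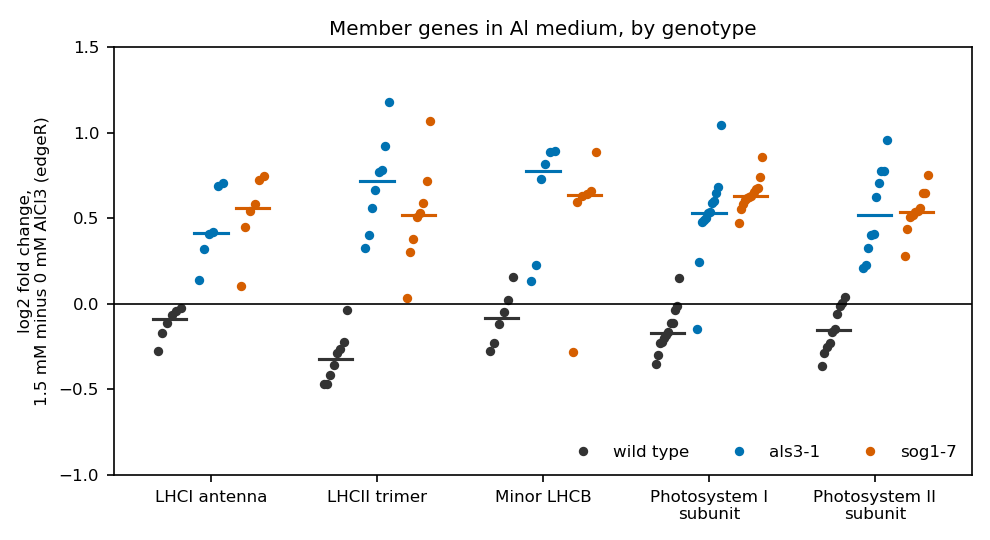
Log2 fold change at 1.5 mM against 0 mM AlCl3 (y axis, edgeR estimate) of each of the 42 tested members, by role and genotype (x axis); each point is 1 gene and each line a median. The medians are below 0 in wild type and above 0 in both mutants for every role; without wild type 1.5 mM replicate 2 and als3-1 0 mM replicate 2 the wild-type medians are 0.11 to 0.21. By edgeR 0 members were called, and by DESeq2 1 was, LHCB5 in sog1-7.

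The difference between responses was tested as an interaction. Against wild type, the response of als3-1 was higher by a median of 0.79 on the log2 scale over the members (-0.30 to 1.47) and that of sog1-7 by 0.78 (-0.31 to 1.36). Without the 2 libraries low in GC-rich genes these medians were 0.19 (-0.27 to 0.72) and 0.42 (-0.18 to 0.92). By edgeR 0 members were called in either, where 0.402% and 0.00462% of all genes were; 0 and 2 (PSAE1 and PSAO) had an unadjusted p under 0.05, and DESeq2 called 0 in both. Between als3-1 and sog1-7 the median difference was -0.02, from -0.73 to 0.63, with 0 called by edgeR or DESeq2 and 0 at an unadjusted p under 0.05, where 1.15% of all genes were called. Without the same 2 libraries it was -0.31, with 36 of 42 negative, 0 called by edgeR and 0 at an unadjusted p under 0.05. A difference between the responses was thus not shown for any member, and the wide errors do not show that the responses were alike. For LHCB2.3, for example, the responses of als3-1 and wild type differed by 1.39 ± 0.78 (adjusted p = 0.664, edgeR).

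Many members stood low in the 2 libraries named above. Measured as log2(CPM + 0.5) minus the mean of the other 2 libraries of the group, the median member stood at -1.06 in wild type at 1.5 mM replicate 2 and at -0.86 in als3-1 at 0 mM replicate 2, with 22 and 20 members below -1. LHCB1.4 stood at -3.93 and -2.92 in these libraries, LHCB6 at -2.89 and -2.51, and PSAL at -2.54 and -2.14. LHCB5 stood at -0.12 and -0.02, and LHCB7 at 0.30 and 0.30. The members with the highest share of G and C in their exons were the lowest, with a Spearman correlation across the 42 members of -0.58 in both libraries, and across 21649 genes of -0.41 and -0.39. Across all genes this correlation was negative in replicate 2 of every group, from -0.41 to -0.12, with -0.28 in als3-1 at 1.5 mM. It was positive in replicate 3 of every group, from 0.13 to 0.35. Each deviation is taken from the other 2 libraries of the group, so the values of replicates 2 and 3 are not independent. The negative trend was thus found in replicate 2 of every group and was strongest in the 2 libraries. These are descriptions across genes, which share the library and are not independent. With an offset for GC content in each library the counts of members called lower without Al were 18 in als3-1 and 35 in sog1-7, and with Al 9 and 22.

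**Figure D5:**
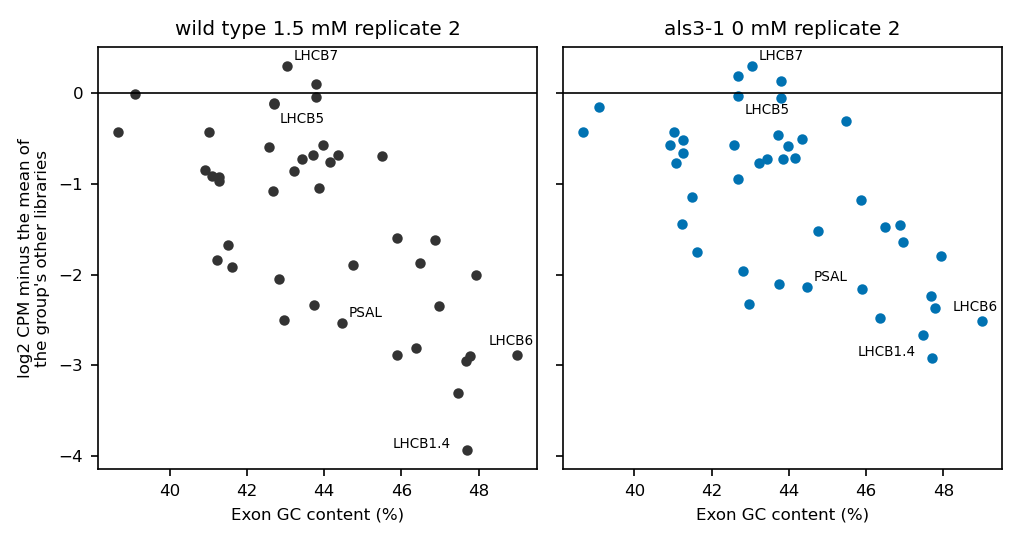
Deviation of each of the 42 members from the other 2 libraries of its group (y axis, log2 scale) against the GC content of its exons (x axis, %) in wild type at 1.5 mM replicate 2 and als3-1 at 0 mM replicate 2. Members richer in G and C tend to lie lower in both libraries, with a Spearman correlation of -0.58 in each.

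Genes for the same protein did not always keep their proportion. The FPKM ratio of PSBQ1 to PSBQ2 was 1.21 ± 0.0931 in wild type without Al, 1.44 ± 0.164 in als3-1 and 2.103 ± 0.141 in sog1-7 (SD, n = 3), so that PSBQ2 made up less of the pair in sog1-7. With Al the ratio was 1.08 ± 0.0661, 1.33 ± 0.185 and 1.77 ± 0.131. The ratio of LHCB4.1 to LHCB4.2 was 1.45 ± 0.130 in wild type, 2.40 ± 0.756 in als3-1 and 2.83 ± 0.373 in sog1-7 without Al. The ratio of LHCB2.1 to LHCB2.3 was 2.12 ± 0.161, 2.96 ± 1.87 and 9.003 ± 5.90 in the same order, and in sog1-7 it ran from 3.92 to 15.5. PSBO1 to PSBO2, in contrast, had group means between 2.77 and 2.89 in all 6 groups, and PSAD1 to PSAD2 between 2.25 and 3.07. The ratios were not tested.

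The 250 bases before each annotated start were searched for short motifs on both strands and set beside the same window of 27443 protein-coding genes (RefSeq annotation, TAIR10). The G-box CACGTG, bound by light-signalling bZIP and bHLH factors, was present in 9 of 43 members (20.9%) and in 6.49% of all genes. The I-box GATAAG was present in 9 (20.9%, against 12.3%), the CCA1-binding site AAAAATCT in 5 (11.6%, against 6.69%), the evening element AAAATATCT in 1 (2.33%, against 2.36%), CCAAT in 28 (65.1%, against 46.0%) and TATAAA in 19 (44.2%, against 47.3%). A match is a description of letters and not a bound site. The G-box members were LHCA4, LHCB2.3, LHCB4.1, LHCB6, LHCB7, PSAE2, PSAH2, PSBQ1 and PSBQ2, which include members far below wild type in sog1-7 (LHCB2.3, -4.92) and the one nearest to it (LHCB7, -0.06). The CCA1-binding site was found for LHCA4, LHCB1.1, LHCB1.4, PSAN and PSAO. The windows of LHCB2.3 (chr3:10255656-10255905, plus strand), LHCA4 (chr3:17495034-17495283, minus strand) and PSBQ2 (chr4:2673244-2673493, minus strand) are shown 5′ to 3′ as examples that hold a G-box. LHCB3 and LHCB5, which had the lowest adjusted p in sog1-7 without Al, held no G-box, I-box or CCA1-binding site. Capitals mark the G-box of LHCB2.3, the reverse complement of the CCA1-binding site and the G-box of LHCA4, and both G-boxes and the I-box of PSBQ2. CCAAT, which each of these windows also holds, is left in lower case.
LHCB2.3: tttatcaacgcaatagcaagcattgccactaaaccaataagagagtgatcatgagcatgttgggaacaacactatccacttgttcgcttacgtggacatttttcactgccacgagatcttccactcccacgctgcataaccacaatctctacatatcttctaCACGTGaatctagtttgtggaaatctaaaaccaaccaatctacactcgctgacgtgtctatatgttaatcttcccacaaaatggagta
LHCA4: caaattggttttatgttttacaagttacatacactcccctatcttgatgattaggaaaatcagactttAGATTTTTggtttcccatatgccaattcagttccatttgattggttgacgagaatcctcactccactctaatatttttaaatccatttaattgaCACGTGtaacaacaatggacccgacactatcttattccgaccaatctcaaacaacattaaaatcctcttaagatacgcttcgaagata
PSBQ2: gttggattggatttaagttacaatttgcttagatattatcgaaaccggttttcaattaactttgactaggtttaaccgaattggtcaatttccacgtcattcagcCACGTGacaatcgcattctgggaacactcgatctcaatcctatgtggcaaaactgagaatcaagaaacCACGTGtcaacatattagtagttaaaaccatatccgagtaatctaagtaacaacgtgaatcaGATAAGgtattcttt
The first G-box letter lies 88 bases before the start in both LHCB2.3 and LHCA4, and 145 and 77 bases before it in PSBQ2.

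Known regulators of photosynthesis genes were compared in the same fit. Of 17 listed, 7 were called lower in als3-1 without Al, where 1.46% of all genes tested were. In sog1-7, 8 were called lower and 1 higher, where 4.92% of all genes were called lower and 10.2% in either direction. The list medians were -0.64 and -0.61 on the log2 scale. CCA1, the clock MYB factor first known for binding an LHCB1 promoter, had 84.4, 131 and 148 CPM in wild type, 20.6, 22.8 and 32.3 in als3-1 and 34.1, 24.2 and 35.2 CPM in sog1-7. Both mutants lay below wild type in every library (-2.26 ± 0.23 and -1.96 ± 0.23; adjusted p = 0.000219 and 0.000206, edgeR). LHY, its close relative, had -1.36 ± 0.20 and -1.27 ± 0.20, and the phytochrome-interacting factor genes PIF4 (-1.81 and -1.67) and PIF5 (-1.69 and -1.73) were also called lower in both. GLK1 had 46.9, 85.1 and 79.0 CPM in wild type, 27.0, 57.9 and 53.6 in als3-1 and 30.9, 27.5 and 18.9 CPM in sog1-7. It was called in sog1-7 (-1.45 ± 0.31; adjusted p = 0.00757, edgeR) and not in als3-1 (-0.61 ± 0.30; adjusted p = 0.375), where it overlapped wild type. GLK2 had 84.6, 179 and 161 CPM, 32.4, 48.7 and 40.0 CPM and 75.6, 34.4 and 24.6 CPM and was called in both (-1.81 ± 0.43 and -1.66 ± 0.43; adjusted p = 0.0416 and 0.0238, edgeR). HY5, a bZIP activator of light-induced genes, was called in neither (-0.56 and 0.08). ABI4 was the 1 called higher (2.96 in sog1-7). With Al 3 regulators were called lower in als3-1, and 4 lower and 2 higher in sog1-7, with CCA1 at -2.01 and -2.27.

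Genes for other parts of the photosynthetic apparatus were also compared. Without Al, 1.46% of all genes tested were called lower in als3-1 and 4.92% in sog1-7. Of 16 chlorophyll synthesis genes, 2 were called lower in each mutant without Al, CAO, which makes chlorophyll b (-1.60 ± 0.25 and -1.64 ± 0.25), and CRD1, a subunit of the cyclase that forms the isocyclic ring (-1.07 and -1.33); the list medians were -0.23 and -0.35. Of 14 electron transport and ATP synthase genes, 1 was called lower in als3-1 (PETC, the Rieske protein, -0.83) and 9 in sog1-7, with list medians of -0.77 and -1.19. Of the 4 Rubisco small subunit genes, 0 were called in als3-1 by edgeR, where 4 had an unadjusted p under 0.05, and 4 were called lower in sog1-7 (medians -1.01 and -1.92). RBCS2B had 3884, 4208 and 3178 CPM in wild type, 1542, 2736 and 1128 in als3-1 and 427, 421 and 149.8 CPM in sog1-7. Every sog1-7 library lay below every library of the other genotypes (-3.50 ± 0.41; adjusted p = 0.000206, edgeR). Of 13 photoprotection genes and relatives of the antenna family, 2 were called lower in als3-1 and 4 in sog1-7 (medians -0.59 and -0.38). Of the 4 genes for import of antenna proteins into the thylakoid membrane, and of the 4 chlorophyll breakdown genes tested, 0 were called by edgeR in either mutant without Al; 1 breakdown gene in als3-1 had an unadjusted p under 0.05. DESeq2 was not counted for these lists. The lists were chosen with earlier results of these data known.

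Markers of other organs and of seedling age were compared as well. Of all genes tested, 2.32% were called in either direction in als3-1 and 10.2% in sog1-7 without Al. With Al these shares were 5.58% and 7.40%. Of 19 root tissue markers, 0 were called by edgeR in either mutant without Al, with 2 in als3-1 and 0 in sog1-7 at an unadjusted p under 0.05, and their summed level was 5151 to 7713 CPM in wild type, 6494 to 8662 in als3-1 and 6555 to 8934 in sog1-7; without PYK10, which makes up most of it, the sums were 889.8 to 935 CPM, 818 to 901 CPM and 727 to 913 CPM. With Al 6 root markers were called lower in als3-1 than in wild type and 0 by edgeR in sog1-7 (2 at an unadjusted p under 0.05). The summed level of all 19 with Al was 4967 to 5938 CPM in wild type, 5751 to 9306 in als3-1 and 5869 to 8152 in sog1-7. Without PYK10 the sums were 772 to 817 CPM in wild type, 428 to 489 in als3-1 and 857 to 1152 in sog1-7. Of 10 seed protein genes, which mark an early seedling, 0 were called by edgeR without Al (0 in als3-1 and 2 in sog1-7 at an unadjusted p under 0.05) and 4 higher in each mutant with Al, when their summed level was 4.12 to 15.3 CPM in wild type, 2.52 to 84.5 in als3-1 and 8.27 to 76.0 in sog1-7. The part of organ proportions or seedling age in the levels of the antenna and photosystem genes was not tested.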

How the data were processed

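Polyadenylated RNA of whole seedlings was sequenced in 18 libraries, 3 in each of 6 groups of genotype and dose. The deposited count tables hold whole-number counts of reads per gene, made by the authors with STAR 2.7.3a and featureCounts 2.0.0 on TAIR10, per the submitters' processing notes. The deposited FPKM tables come from Cufflinks 2.2.1, per the submitters' processing notes. Whether counting used strand, how reads with several matches were treated, and which annotation release was used is not given in the sources at hand. The gene positions in the FPKM tables equalled those of the RefSeq annotation of TAIR10 for 99.9% of 32538 genes and for all 43 members.

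The deposited counts were analysed with edgeR 4.0.16 in R 4.3.3: genes were filtered with filterByExpr by group (21650 tested), scaled by TMM and fitted with the robust quasi-likelihood model to 1 mean per group over all 18 libraries. Differences were contrasts of those means with Benjamini-Hochberg adjustment over all genes tested. CPM values are TMM-scaled, except the floor in CPM and the CPM per kb set beside FPKM, which were scaled to total counts alone. Depth was 25561124 to 44572947 counts per library, and the floor of 3 counts covers counting error only. DESeq2 1.42.0, and limma 3.58.1 on log2(FPKM + 1) or log2(FPKM + 0.1), served as alternatives, with the others listed in the closing section. EdgeR, DESeq2 and limma were run on counts simulated for the wild-type libraries, with known changes and the same spread for all genes. The simulation held no GC trend, replicate effect or mutant library. It did not cover the replicate block, the GC offsets or the interactions.

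All 43 members may be named. Values by library were given for members called in a comparison, up to the 4 with the lowest adjusted p in each direction, and for the highest and lowest member of each role by mean FPKM; other values by library were chosen after they had been seen. The members and the gene lists were chosen with earlier results of these data known. No 2 replicates agreed within sampling noise. Same-numbered libraries deviated together (every correlation of deviations from the group means over 0.1) in 8 of the 12 comparisons. Among them were als3-1 against wild type at both doses, sog1-7 against wild type at 1.5 mM and als3-1 against sog1-7 at 1.5 mM. Without Al, sog1-7 against wild type and als3-1 against sog1-7 were not among them. The main tests used group means alone and no pairs. The replicate number entered only as a block in an alternative run, which also covered the comparisons where the libraries did not deviate together. The labels do not say what a number stands for.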

Additional observations from a re-analysis of the deposited data

Results flagged for a closer look

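LHCB1.5 had 0 counts in all 18 libraries of the count tables, while the deposited FPKM tables gave it up to 3196 FPKM, in wild type at 1.5 mM replicate 4. By FPKM it had 1917, 2058 and 2249.5 in wild type without Al, 27.0, 485 and 585 in als3-1 and 393, 279 and 254 in sog1-7. The mutant libraries lay below wild type, as for the other LHCB1 genes. Its exons are covered to 100% by an annotated gene on the opposite strand, AT2G08665, which also had 0 counts. AT1G55673, antisense to PSAG, had 0 counts and a mean of 950 FPKM, from 45.4 to 1931 over the 18 libraries. Both values stand outside the count-based comparisons, and their cause was not tested.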

How the results depend on the processing

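No call of a single member turned its sign under any alternative run. The median Al response of the members in wild type, -0.17, was 0.15 without wild type 1.5 mM replicate 2 and 0.02 without wild type 0 mM replicate 4, and that of als3-1 minus sog1-7, -0.02, lay on either side of 0 (-0.31 to 0.14) among the alternatives. Of the 74 calls of single members, DESeq2, RLE scaling, the replicate block, and the replicate block with GC offset kept all 74, the GC offset kept 73 and the fit with no filter on low counts 72, whereas limma on log2(FPKM + 1) kept 48 and fits to only the groups compared kept 47. The counts of members called are given here in the order als3-1 against wild type, sog1-7 against wild type and als3-1 against sog1-7, first without and then with Al; the values above are 16, 33 and 1, then 6, 17 and 1. DESeq2 called 30, 38 and 5, then 10, 23 and 4, and 1 member for Al in sog1-7 (LHCB5). The replicate block gave 28, 36 and 5, then 10, 20 and 3; the replicate block with GC offset gave 29, 38 and 7, then 16, 26 and 7; the GC offset alone gave 18, 35 and 2, then 9, 22 and 2. The block changed no other call. Limma gave 8, 26 and 0, then 3, 12 and 2 with log2(FPKM + 0.1), 8, 25 and 0, then 3, 12 and 2 with log2(FPKM + 1), and 6, 25 and 0, then 3, 10 and 1 with no filter on FPKM. Fits to only the groups compared gave 8, 34 and 0, then 2, 8 and 0. Without the 2 libraries low in GC-rich members the counts were 16, 38 and 2, then 19, 28 and 7, and 1 for Al in sog1-7; without the 3 low in ribosomal RNA they were 20, 29 and 0, then 5, 19 and 2; without all of these, 30, 39 and 2, then 16, 35 and 13. Leaving out 1 library at a time gave 6 to 11, 23 to 30 and 0, then 2 to 11, 10 to 22 and 0 to 2, and 0 to 1 for Al in wild type, where the 1 came without wild type 0 mM replicate 4. The cause of these changes was not tested, except that fewer libraries enter the fits that leave some out. The share of all genes called is given for the main fit only, so these counts are not set against it. Leaving out the 2 libraries, all of these, and the GC offsets were chosen after seeing the data. No member was called for Al in als3-1 or for a difference between responses in any setting. The share of counts on the members moved by less than 1 SD with ribosomal RNA left out of the total. Every tested member lay above the floor of 3 counts in every library; the count files hold no value for LHCB1.5 above 0.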

Other observations

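LHCB1.5, which could not enter the comparisons of counts, had 41.4, 1918 and 3196 FPKM in wild type with Al, 839, 939 and 841 FPKM in als3-1 and 623, 325 and 461 FPKM in sog1-7. The first wild-type value is the library in which GC-rich genes were low. Of the 42 tested members, 9 were called by edgeR in none of the 12 comparisons: LHCA6, LHCB1.3, LHCB4.1, LHCB4.3, LHCB7, PSAF, PSAL, PSBR and PSBY. They include the member with the highest level, LHCB1.3, and the one with the lowest, LHCB7. DESeq2 called 5 of these 9 lower in sog1-7 without Al (LHCB1.3, PSAF, PSAL, PSBR and PSBY), and edgeR with the replicate block called 4 of them (LHCA6, LHCB1.3, LHCB4.3 and LHCB7), each in a mutant without Al. The 285 organelle genes listed in the count tables had 0 counts in every library, so that the chloroplast-encoded subunits of the same complexes could not be set beside the nuclear ones.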
